A study of Mus musculus with 28 samples.

Results

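Hematoendothelial (HE) precursors are the cells that the study annotated between early mesoderm and hematoendothelium (HE) in embryoid bodies (EBs), aggregates of mouse embryonic stem cells that form mesoderm in culture. All cells that carried this annotation in the deposited cell table were taken, which gave 1393 of 31596 annotated cells (4.41%). The table covers 12 libraries of days 3.5 to 5, made by the 10x multiome method that reads RNA and open chromatin from the same nuclei, and 2 WT libraries of day 3, in which no HE precursor was annotated. Every library derived from a single embryonic stem cell line with a Runx1-Venus reporter and an mCherry degron tag on Eomes, so the controls carried the reporter and the tag too. DMSO was given to WT cultures and 100 nM dTAG-13 to Eomes-KD cultures. This small molecule makes the cell degrade the tagged EOMES protein. The compound was added from day 3, until day 4 by the study's methods and up to day 5 by its design text, so at day 3.5 it was present under both accounts. WT and Eomes-KD libraries were made at days 3.5, 4 and 4.5 in experiment 1 and at days 3.5, 4 and 5 in experiment 2. The experiments were separate EB differentiations performed weeks apart, and within each of them all days were collected on the same day from staggered starts. A number shared by WT and Eomes-KD libraries therefore marked a shared differentiation and collection.

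In the mouse embryo, blood and the first vessels of the yolk sac (YS) arise from mesoderm that leaves the posterior primitive streak. Mesoderm with this potential expresses Kdr, the receptor for VEGF-A, as well as Etv2 and Tal1. Etv2 is a transcription factor needed for blood and vessel formation, and Tal1 is a transcription factor needed for the blood lineage. Eomes is a T-box transcription factor expressed in the primitive streak and early mesoderm. The cell table held no value of any gene, so Kdr, Etv2 and Tal1 could not be checked directly, and the annotation was compared only with labels transferred from an atlas of mouse gastrulation. Those labels had been among the grounds on which the study named its clusters, so the labels that the cells carried are a description.

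All 1393 HE precursors lay in cluster 14 of the 18 clusters built from RNA and chromatin together, and the only other cell of that cluster was a primordial germ cell. No comparison of clusters within HE precursors was therefore possible. The 12 libraries of days 3.5 to 5 held 445 to 7391 annotated cells, with median RNA counts per cell of 8207 to 23017. A barcode found in more than 1 library was carried by 50 of the 1393 HE precursors (3.59%), and 1 barcode was shared by HE precursors of different libraries.

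HE precursors were a day 3.5 population: 1335 of the 1393 cells (95.8%) came from that day and 58 from later days. They were fewer in Eomes-KD, with 1290 WT cells and 103 Eomes-KD cells in all. At day 3.5 they made up 371 of 2443 WT cells in experiment 1, a share of 15.2% (95% Wilson interval 13.8 to 16.7). In experiment 2 they made up 873 of 7391 WT cells, or 11.8% (11.1 to 12.6). The Eomes-KD libraries of that day held 64 of 1875 cells in experiment 1, or 3.41% (2.68 to 4.34), and 27 of 2663 cells in experiment 2, or 1.01% (0.698 to 1.47). Both WT libraries thus lay above both Eomes-KD libraries, and the intervals, which cover counting error only, did not overlap. Among the 8 cell types present on that day, HE precursors ranked 2nd and 3rd by number in WT and 4th and 6th in Eomes-KD. The mean share of the day was 13.5% (SD 2.39, n = 2) for WT libraries and 2.21% (SD 1.70, n = 2) for Eomes-KD libraries.

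**Figure D1:**
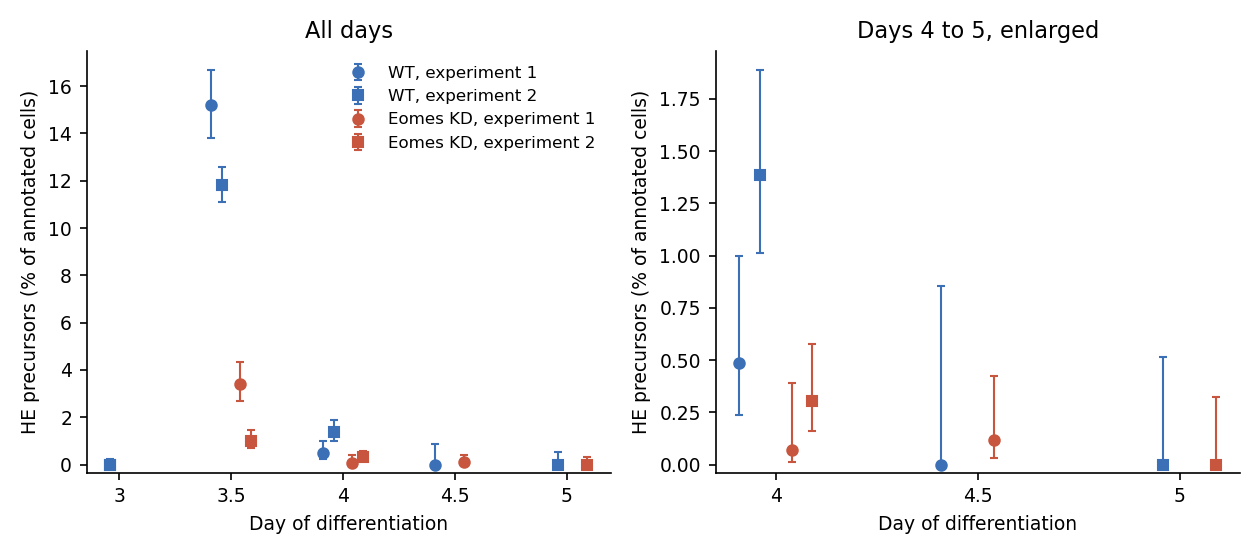
Share of HE precursors among annotated cells (%) by day of differentiation, 1 point per library with its 95% Wilson interval, WT in blue and Eomes-KD in red, circles for experiment 1 and squares for experiment 2, with points of a day set slightly apart. At day 3.5 the WT libraries stood at 15.2% and 11.8% and the Eomes-KD libraries at 3.41% and 1.01%, and from day 4 on every library was below 1.5%, as the enlarged right panel shows.

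At day 4 few HE precursors were left in either condition. WT held 7 of 1443 cells in experiment 1 (0.485%) and 39 of 2818 cells in experiment 2 (1.38%). Eomes-KD held 1 of 1453 cells in experiment 1 (0.0688%) and 9 of 2966 in experiment 2 (0.303%). The conditions did not overlap at day 4 either, but the interval of the lower WT share (0.235 to 0.998) overlapped that of the higher Eomes-KD share (0.160 to 0.576). At day 4.5 there were 0 of 445 WT cells, which allows a share of up to 0.674%, and 2 of 1722 Eomes-KD cells (0.116%). At day 5 there were 0 of 739 WT cells (up to 0.406%) and 0 of 1177 Eomes-KD cells (up to 0.255%). The day 3 WT libraries held 0 of 2781 and 0 of 1680 cells, which allows 0.108% and 0.179%.

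Paired by day and experiment, the WT share at day 3.5 was 4.45 times the Eomes-KD share in experiment 1 (exact 95% interval of the ratio 3.40 to 5.90). In experiment 2 it was 11.6 times as high (7.95 to 17.8), so the size of the ratio differed between the experiments by more than counting error. At day 4 the ratios were 7.05 (0.906 to 318) in experiment 1, with 1 Eomes-KD cell behind it, and 4.56 (2.17 to 10.7) in experiment 2. In percentage points, Eomes-KD minus WT, the differences were -11.8 and -10.8 at day 3.5 and -0.416 and -1.08 at day 4. No ratio is given for days 4.5 and 5, where both libraries were at or under the 3 cells used as the floor.

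Over the 12 libraries of days 3.5 to 5, HE precursors fell in Eomes-KD, with a log2 change of -2.26 (SE 0.59, edgeR quasi-likelihood test with day as a covariate, adjusted p = 0.00203 over 12 cell types). This call stood among many, since 8 of the 12 cell types (66.7%) passed the threshold of 0.05 in this test, 5 of them lower in Eomes-KD (41.7%). Only limma on transformed shares, among the alternatives run, ended the call (adjusted p = 0.0823). Median RNA counts per cell were also higher in Eomes-KD than in WT at day 3.5, 22168 against 17372 in experiment 1 and 12983 against 8207 in experiment 2. When each library was restricted to its cells of above-median RNA count, the log2 change was -2.52 (adjusted p = 0.00196). The cut was at each library's own median and did not equalise depth between conditions, so an effect of depth was not tested.

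In the test of each day, the log2 change at day 3.5 was -2.62 (SE 0.84, adjusted p = 0.0582) without the experiment in the model and -2.65 (SE 0.65, adjusted p = 0.00220) with the experiment as a block. Both adjustments ran over 12 types, although only 8 of these had cells at day 3.5. Before adjustment, the p of the edgeR test without the block was 0.0194. The unblocked value passed the threshold when the Eomes-KD library of day 3.5 in experiment 1 was left out (-3.73, adjusted p = 0.0409). It also passed when either Eomes-KD library of day 4 was left out, which left the day 3.5 value at -2.62 (adjusted p = 0.0108 in both cases). At day 3.5, 3 of 12 types (25%) were called without the block and 1 of them (8.33%) was lower. Calls with the block were not counted over the types at day 3.5 or day 4, so the blocked values lack this background. At day 4 the log2 change of HE precursors was -2.19 (SE 0.97, adjusted p = 0.118) without the block and -2.17 (SE 0.83, adjusted p = 0.0303) with it, beside 2 of 12 types called (16.7%) and 1 lower (8.33%) without the block. The day 4 value was -1.21 without the WT library of experiment 2 and -3.72 without the Eomes-KD library of experiment 2, so it rested on few cells. The difference between the day 3.5 and the day 4 change, a contrast added with the values known, was -0.43 (SE 1.35, unadjusted p = 0.760 in edgeR). That test called 0 of 12 types (0%), and its interval is too wide to show that the days were alike.

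An exact permutation test on the shares themselves, two-sided and with labels permuted within days, gave a mean difference of -2.98 percentage points over the 4 days (p = 0.0833). Its 144 arrangements would allow a p of 0.0139 without ties. Both day 5 shares were 0, so arrangements were tied and that value could not be reached. Days 4.5 and 5 added pairs with almost no HE precursors. Without them, a setting added with the values known, the difference was -6.02 points (exact p = 0.0556, the smallest that 36 arrangements allow).

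Here 4 annotated types were grouped as a YS path, namely an early mesoderm type coded EOd in the table, HE precursors, HE and blood progenitors. The study's text does not explain the code EOd, and the place of this type at the start of the path was set here. This path was used to ask whether HE precursors were lower by more than the cells before and after them. At day 3.5 the EOd early mesoderm numbered 1345 and 4051 cells in WT and 150 and 97 cells in Eomes-KD. HE numbered 65 and 129 cells in WT and 17 and 2 cells in Eomes-KD. For each EOd cell there were 0.276 and 0.216 HE precursors in WT and 0.427 and 0.278 in Eomes-KD, so the ratio was higher in Eomes-KD within both experiments, while the conditions' ranges met at 0.276 and 0.278.

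As a share of all YS path cells of day 3.5, HE precursors were 20.8% and 17.3% in WT and 27.7% and 21.4% in Eomes-KD. At day 4 they were 1.136% and 4.00% in WT and 0.535% and 5.84% in Eomes-KD, lower in Eomes-KD in experiment 1 and higher in experiment 2. At day 4.5 they were 0 of 153 YS path cells in WT and 2 of 32 (6.25%) in Eomes-KD. The mean difference over these 3 days was 4.13 percentage points (Eomes-KD minus WT, two-sided p = 0.139 in the exact permutation test over 10 libraries, smallest possible p 0.0278). It was 3.07 points without day 4.5 (exact p = 0.278, likewise added with the values known). Within the path, a change in the share of HE precursors was thus not detectable with these libraries. Day 5 was left out because its Eomes-KD library held only 6 YS path cells.

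**Figure D2:**
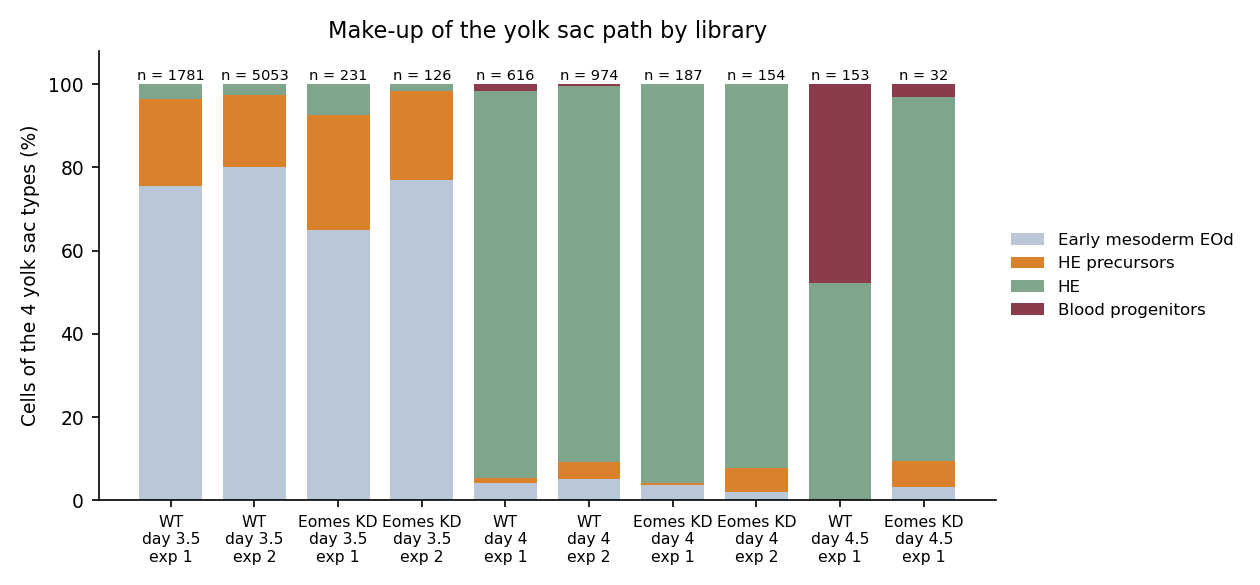
Make-up of the YS path in each library (% of the cells of the 4 YS path types), with the number of YS path cells above each bar. HE precursors (orange) took 17.3% to 27.7% of the path in the day 3.5 libraries of both conditions, and HE (green) took most of it at day 4.

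By atlas label, HE precursors of day 3.5 were mostly mixed mesoderm, with smaller shares of haematoendothelial progenitors and nascent mesoderm. Each label was the most frequent among the 25 nearest atlas cells. In the 4 libraries of day 3.5, 62.3% and 64.9% of WT cells and 70.3% and 63.0% of Eomes-KD cells were labelled mixed mesoderm, an atlas type of early mesoderm. The haematoendothelial progenitor label of the atlas was carried by 26.4% and 20.7% of WT and 25% and 14.8% of Eomes-KD HE precursors. Nascent mesoderm, the first mesoderm to leave the streak, was the label of 10.5% and 12.8% of WT and 4.69% and 22.2% of Eomes-KD HE precursors. The Eomes-KD value of experiment 1 lay below both WT values for nascent mesoderm and that of experiment 2 lay above them. EOd cells of the same WT libraries were mostly nascent mesoderm (76.95% and 73.7%), and HE cells were mostly haematoendothelial progenitors (96.9% and 93.8%).

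Eomes-KD and WT HE precursors were not distinguished by these atlas labels. The log2 changes of the label shares within HE precursors were -0.05 (SE 0.40) for haematoendothelial progenitors, 0.09 (SE 0.17) for mixed mesoderm and -0.28 (SE 0.68) for nascent mesoderm. The edgeR test over the 4 libraries gave an adjusted p of 0.901 for all 3 labels, with 0 of 3 called (0%), 0 at an unadjusted p under 0.05 and 0 called by DESeq2. The nascent mesoderm value had an SE larger than itself, so equal shares in both conditions were not shown either.

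At days 3.5 and 4, cells with the haematoendothelial atlas label were mostly HE precursors or HE. Of the 513 cells of day 3.5 with this atlas label, 299 (58.3%) were HE precursors and 202 were HE. At day 4 the same label was on 1471 cells, of which 24 (1.63%) were HE precursors and 1342 were HE. Later none was an HE precursor, and endothelium made up 124 of 219 such cells at day 4.5 (56.6%) and 169 of 217 at day 5 (77.9%). Counting the label in place of the annotation, 6.59% and 4.21% of WT cells and 1.81% and 0.263% of Eomes-KD cells carried it at day 3.5. These shares were also lower in both Eomes-KD libraries than in both WT libraries. Most of these labelled cells were the annotated HE precursors and HE, so this count is no independent check of the annotation.

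The labels of an extended version of the atlas, which divides later tissues more finely, split the mixed mesoderm cells. Of the 891 HE precursors labelled mixed mesoderm, 74.9% were nascent mesoderm in the extended set, 16.0% haematoendothelial progenitors and 8.87% lateral plate mesoderm, the mesoderm that lines the body wall and gut and gives rise to heart and vessels. Of the 323 labelled haematoendothelial progenitors, 314 (97.2%) kept that label in the extended set. By extended label, 58.8% and 63.7% of WT HE precursors of day 3.5 were nascent mesoderm, against 43.8% and 51.9% in Eomes-KD. Haematoendothelial progenitors were 34.5% and 30.1% in WT and 50.0% and 33.3% in Eomes-KD. Lateral plate mesoderm was 6.74% and 5.15% in WT and 6.25% and 11.1% in Eomes-KD. Nascent mesoderm was therefore lower in both Eomes-KD libraries than in both WT libraries, and the haematoendothelial label was higher in Eomes-KD in experiment 1 and between the WT values in experiment 2.

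These extended label differences did not pass the test. The log2 change was -0.43 (SE 0.21) for nascent mesoderm and 0.51 (SE 0.24) for haematoendothelial progenitors, both with an edgeR adjusted p of 0.134. It was 0.45 (SE 0.56, adjusted p = 0.455) for lateral plate mesoderm. The test called 0 of 3 labels (0%), with 0 at an unadjusted p under 0.05 and 0 called by DESeq2.

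**Figure D3:**
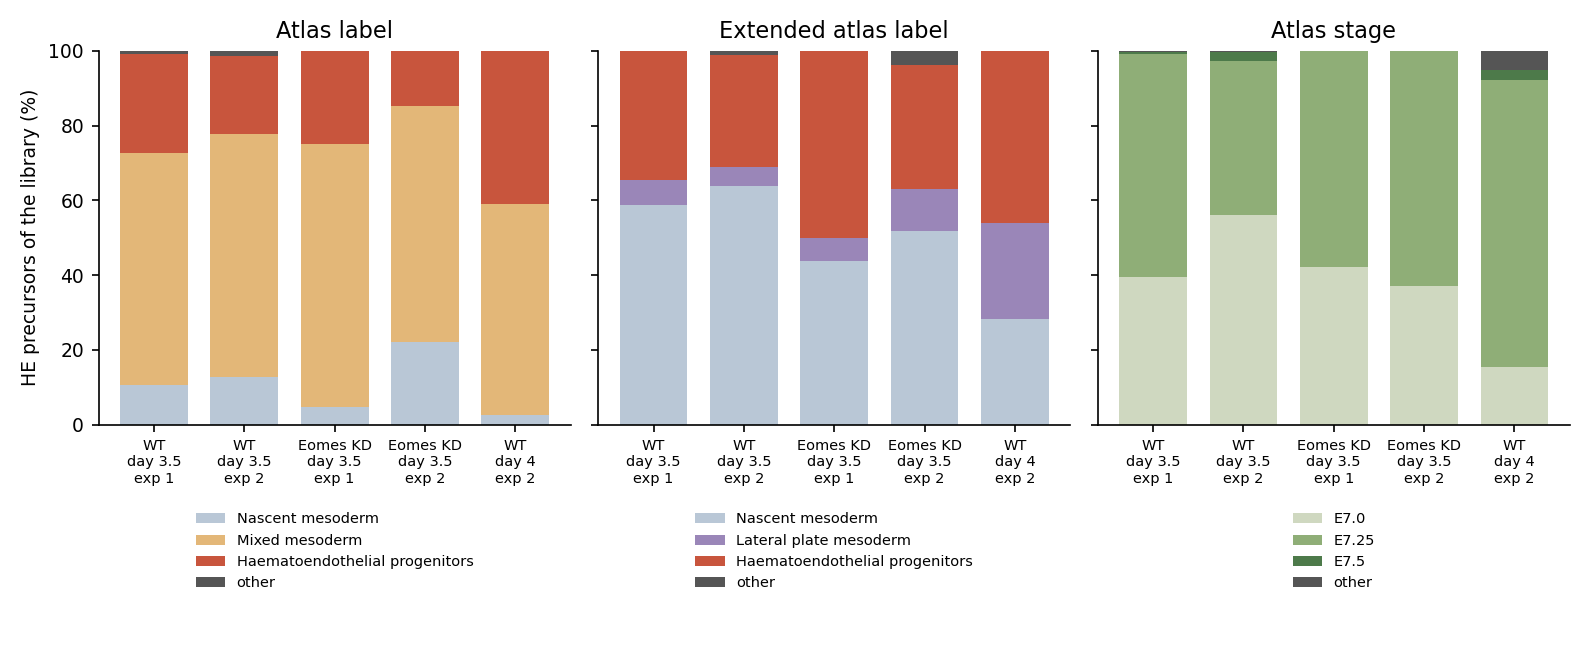
Atlas labels (left), extended atlas labels (middle) and atlas stages (right) of HE precursors, as % of the HE precursors of each library with at least 20 of them. Mixed mesoderm led the atlas labels in all 5 libraries (56.4% to 70.3%), and the WT library of day 4 had the smallest share of stage E7.0 (15.4%).

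The stages of the matched atlas cells were almost all E7.0 and E7.25, the days of embryonic development at which the first mesoderm is present. At day 3.5, E7.0 was the stage of 39.4% of WT HE precursors in experiment 1 and of 56.0% in experiment 2. In Eomes-KD it was the stage of 42.2% and 37.0%. E7.25 was assigned to 59.8% and 41.4% in WT and 57.8% and 63.0% in Eomes-KD. E7.5 was assigned to 2 of 371 and 21 of 873 WT cells and to 0 of 64 and 0 of 27 Eomes-KD cells, which allows 4.69% and 11.1%. The WT libraries differed from each other by more than the Eomes-KD libraries did.

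The edgeR test of the stages called 0 of 3 (0%), with 0 at an unadjusted p under 0.05 and 0 called by DESeq2, and the adjusted p was 0.676 for each stage. The log2 change was -0.25 (SE 0.58) for E7.0 and 0.25 (SE 0.55) for E7.25. Without the WT library of experiment 1, the log2 changes were -0.46 for E7.0 and 0.52 for E7.25. That fit left WT with 1 library and no replicate, so its calls are not read as a result. The values for the stages therefore depended on which WT library was in the fit. At day 3.5, HE precursors of the WT libraries had a larger share of E7.0 than the EOd cells did (17.0% and 20.4%), and HE cells had 32.3% and 39.5%, which is given as a description since the cell types were defined on the same profiles. At day 4 in experiment 2 the order was the other way, with E7.0 in 6 of 39 WT HE precursors and in 14 of 50 EOd cells.

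HE precursors left at day 4 could be compared with those of day 3.5 in WT only, where the library of experiment 2 held 39 of them. Their extended labels were 25.6% lateral plate mesoderm (10 cells), 28.2% nascent mesoderm and 46.2% haematoendothelial progenitors. Lateral plate mesoderm thus stood above the 6.74% and 5.15% of day 3.5, and nascent mesoderm below the 58.8% and 63.7%. The log2 changes from day 3.5 to day 4 were 2.18 (SE 0.61) for lateral plate mesoderm and -1.14 (SE 0.40) for nascent mesoderm, both with an edgeR adjusted p of 0.0997. Lateral plate mesoderm was the only label with an unadjusted p under 0.05 (0.0372), and neither edgeR nor DESeq2 called any of the 3 (0%). This test of extended labels was added with the values known, and with 1 library at day 4 that library was assumed to vary like those of day 3.5.

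In the atlas labels of the same comparison, haematoendothelial progenitors were 41.0% at day 4 (log2 change 0.85, SE 0.46) and nascent mesoderm was 2.56% (1 cell, log2 change -2.22, SE 1.21), both with an edgeR adjusted p of 0.245. Mixed mesoderm was 56.4% (log2 change -0.18, SE 0.36). Stage E7.0 was 15.4% at day 4, below the 39.4% and 56.0% of day 3.5, and E7.25 was 76.9%, with edgeR adjusted p values of 0.623 and 0.757. In the WT library of experiment 1, whose 7 HE precursors were too few for these tests, E7.0 was 42.9%, within the range of day 3.5, and E7.25 was 57.1%. Of those 7 cells, 2 had the extended label lateral plate mesoderm, 1 nascent mesoderm and 4 haematoendothelial progenitors. For atlas labels and stages alike, 0 of 3 were called (0%), 0 had an unadjusted p under 0.05 and DESeq2 called 0.

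The map of all cells (UMAP, a projection in arbitrary units built on RNA and chromatin together) set HE precursors between EOd early mesoderm and HE. In WT cells of days 3.5 to 5, the HE precursor median lay 2.98 units from the EOd median and 3.73 units from the HE median. On the first axis the day 3.5 libraries had nearly the same medians, 2.62 and 2.52 in WT and 2.56 and 2.56 in Eomes-KD. On the second axis the medians were -1.25 and -1.31 in WT and -0.33 and -0.68 in Eomes-KD, so Eomes-KD HE precursors sat higher in both experiments. The difference was 0.77 units (exact permutation test, p = 0.333, which is the smallest p that 2 libraries against 2 allow).

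A shift in the same direction was present in the other cells of these libraries. Cells other than HE precursors had second-axis medians of -2.10 and -1.76 in WT and -0.16 and -0.47 in Eomes-KD, and EOd cells -2.501 and -1.86 in WT and -1.20 and -0.98 in Eomes-KD. Set against the other cells of its own library, the difference between conditions had the opposite sign, -0.84 units. The make-up of those other cells also differed, with 1345 and 4051 EOd cells in WT and 150 and 97 in Eomes-KD. That difference therefore mixes position with make-up, and only the EOd values compare cells of the same type. The WT centre of HE precursors was the nearest cell type centre for 92.7% and 96.2% of WT and for 76.6% and 85.2% of Eomes-KD HE precursors. The EOd centre was nearest for 6.47% and 3.32% in WT and 17.2% and 7.41% in Eomes-KD. These centres were computed from WT cells, which the WT libraries contributed to themselves.

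**Figure D4:**
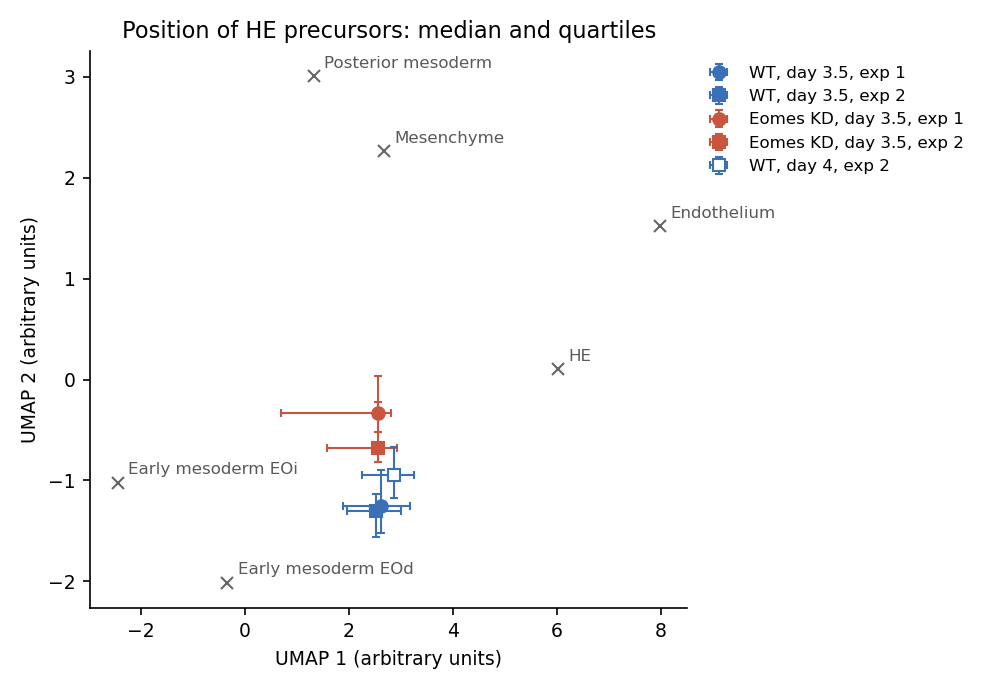
Position of HE precursors on the UMAP (arbitrary units), with the median of each library as a point and quartiles as bars, and crosses at the WT medians of other cell types. The Eomes-KD medians of day 3.5 (-0.33 and -0.68 on the vertical axis) lay above the WT medians (-1.25 and -1.31) at nearly the same horizontal position.

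Along the line from the EOd median (0) to the HE median (1), a scale chosen after seeing the data, day 3.5 HE precursors had medians of 0.453 and 0.432 in WT and 0.484 and 0.477 in Eomes-KD, and those of WT day 4 a median of 0.511. The atlas labels followed this line in WT. Cells labelled nascent mesoderm had medians of 0.309 and 0.340, mixed mesoderm 0.396 and 0.415, and haematoendothelial progenitors 0.585 and 0.544. In Eomes-KD, haematoendothelial progenitors had medians of 0.552 (16 cells) and 0.585 (4 cells) and mixed mesoderm 0.454 and 0.417. The order of these medians is a description, since labels and map both come from the RNA of the same cells.

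The RNA of HE precursors was close to that of the other cells of their library. The median RNA count at day 3.5 was 19327 and 9029 in WT and 23702 and 14232 in Eomes-KD, which was 1.13, 1.11, 1.07 and 1.10 times that of the other cells of the same library. Medians of genes detected per cell were 5353 and 3721 in WT and 5937 and 4870 in Eomes-KD. Experiment 1 was the deeper in both conditions, and within each experiment Eomes-KD was the deeper. The mitochondrial share of RNA was 7.61% and 7.59% in WT and 7.17% and 5.86% in Eomes-KD. The ribosomal share was 10.3% and 7.99% in WT and 9.54% and 7.68% in Eomes-KD. All 4 libraries had less mitochondrial and less ribosomal RNA in HE precursors than in their other cells. The doublet score, which is high for droplets that may hold several cells, had medians of 0.31 and 0.26 in WT and 0.285 and 0.17 in Eomes-KD.

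The scores of the transferred labels give the share of the 25 nearest atlas cells that carry the label. For the atlas label the medians were 0.76 and 0.68 in WT and 0.68 and 0.64 in Eomes-KD. For the extended label they were 0.80 and 0.76 in WT and 0.72 and 0.64 in Eomes-KD, so both Eomes-KD libraries lay below both WT libraries. The stage score was 0.56 in both WT libraries and 0.52 and 0.48 in Eomes-KD. Other cells of the same libraries had extended label medians of 0.94 and 0.92 in WT and 0.84 and 0.64 in Eomes-KD, and stage score medians equal to those of the HE precursors in all 4 libraries. None of the 12 measures per cell passed an exact permutation test over the 4 libraries, where p cannot go below 0.333 and the adjusted p ran from 0.667 to 1.

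**Figure D5:**
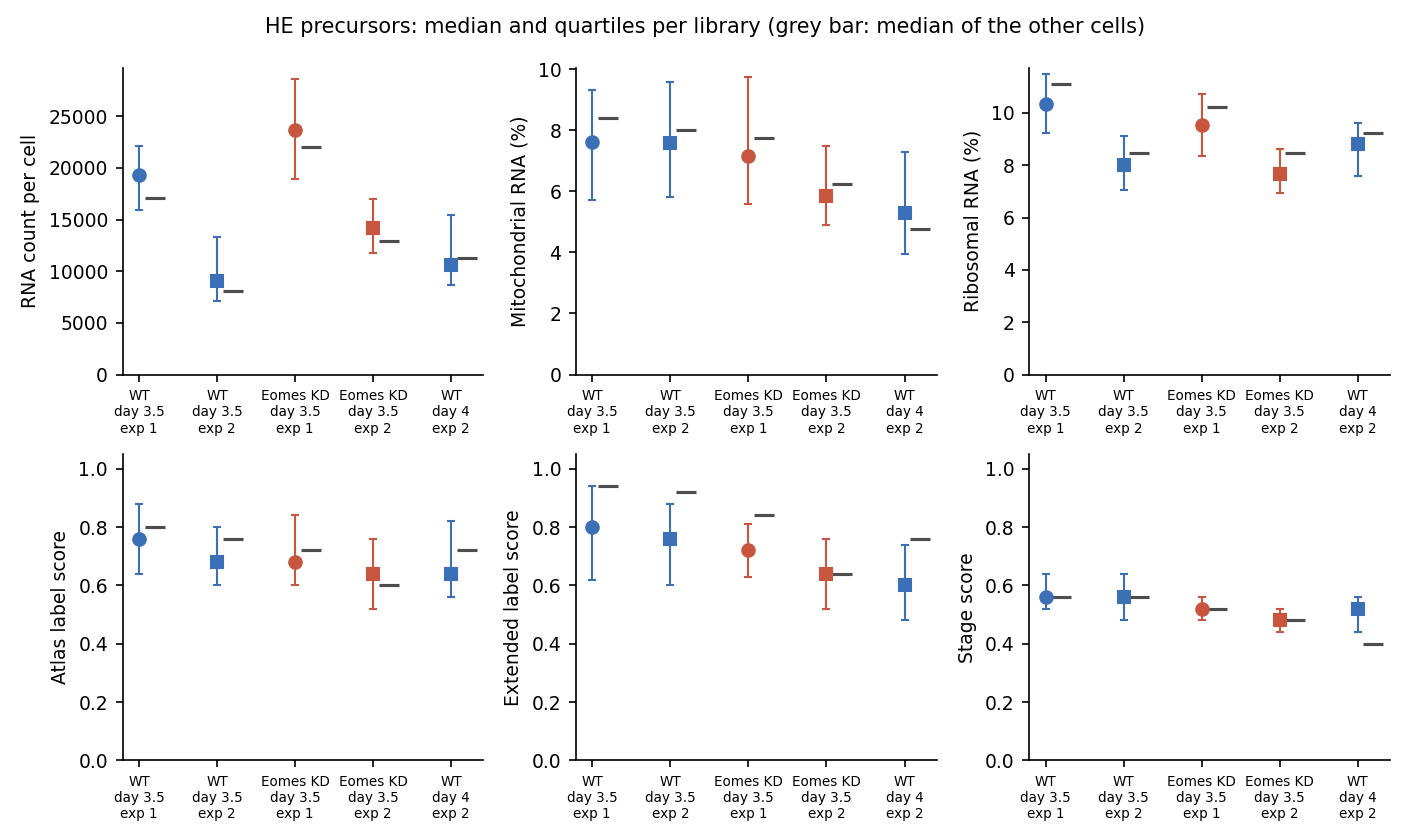
RNA count, mitochondrial and ribosomal RNA (%), and atlas, extended and stage scores (shares of 25 atlas neighbours) of HE precursors, as the median (point) and quartiles (bars) of each library with at least 20 of them, beside the median of the other cells of that library (grey bar). WT is blue and Eomes-KD red; the extended label score fell below the grey bar in the WT libraries (0.80 against 0.94 and 0.76 against 0.92 at day 3.5).

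Some of the few HE precursors of late Eomes-KD libraries carried endothelial labels, while others kept labels seen at day 3.5. At day 4 in experiment 2, 5 of 9 Eomes-KD HE precursors (55.6%, 26.7 to 81.1) had an endothelial extended label, 3 of them allantois endothelium and 2 embryo proper endothelium, and the other 4 had the labels haematoendothelial progenitors (3 cells) or nascent mesoderm (1 cell). None of the 39 WT HE precursors of the same day and experiment had such a label, which allows up to 7.69%, nor did any of the 7 of experiment 1 or of the 1335 cells of day 3.5. Atlas stages of E7.75 or later were assigned to 6 of these 9 Eomes-KD cells and to 2 of the 39 WT cells. On the map, 8 of the 9 cells were nearest to the HE precursor centre, and none of the 9 was nearer to the EOd centre than to the HE centre, against 17 of the 39 WT cells (43.6%).

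The 2 Eomes-KD cells of day 4.5 were labelled endocardium and venous endothelium, both at stage E8.5, and lay nearest to the allantois and the endothelium centres. The single Eomes-KD cell of day 4 in experiment 1 was labelled lateral plate mesoderm and lay nearest to posterior mesoderm. HE cells of the same libraries differed between conditions in the same direction, with an endothelial extended label on 25.1% and 26.7% of WT and 75.4% and 83.8% of Eomes-KD HE cells at day 4. These late counts come from 12 Eomes-KD cells in 3 libraries, and the difference between conditions was not tested.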

How the data were processed

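Mouse EB cells were read as 10x multiome libraries, and 1 deposited table with a line per cell was used. Per the study's methods the authors aligned reads to mm10 with Cell Ranger ARC 2.0.1, filtered cells on RNA and chromatin, removed doublets by score, built clusters and the UMAP from both data types with MOFA+, named cell types, and transferred labels from the E6.5 to E8.5 gastrulation atlas for each library. Each label was the mode over 25 nearest atlas cells. The deposited columns used hold RNA and gene counts per cell, mitochondrial and ribosomal percent, doublet score, UMAP scores, and label scores as a fraction of the 25 neighbours (whole multiples of 1/25 within 1e-06 in all 4179 values of HE precursors). Gene and chromatin values were not used here. These filters decide which cells were counted, so shares are shares of cells that passed both.

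Libraries were grouped by GEO's labels, and the replicate number of the labels is the experiment. The authors' cell names were counted per library. Cell type counts, with the annotated cells as library size, were fitted with edgeR 4.0.16 (glmQLFit and glmQLFTest, no abundance trend, types with at least 10 cells, Benjamini-Hochberg over the 12 types). The fit over days had day as a covariate, and the fit per day had a group per day and condition, with 1 shared spread. Labels and stages within HE precursors were fitted likewise with HE precursors as library size, in libraries with at least 20 of them. Where a dispersion could not be estimated in 1 alternative, edgeR's common dispersion was used. Shares and library medians were compared by exact permutation tests over libraries. Wilson intervals are at 95%, and a count of 0 was read as up to 3 cells, and both cover counting error only. Labels and stages were named where they held at least 5% of a library's HE precursors. Software was Python 3.11.15, scipy 1.17.1, R 4.3.3, limma 3.58.1 and DESeq2 1.42.0. The edgeR step was also run on simulated counts with known changes. Those counts had no change between days, so that run did not cover the fall of HE precursors over days. Experiment numbers were taken to pair libraries because they mark a shared differentiation. Over cell types, the differences between experiments in WT and in Eomes-KD correlated at 0.51 at day 3.5 (8 types) and 0.913 at day 4 (10 types).

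The cell type and the comparisons were chosen with earlier results of these data known. Alternatives were TMM factors, DESeq2, limma on arcsine square root shares, no filter, the experiment as a replicate block, leaving out each library, and limits on RNA count, label score and doublet score.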

Additional observations from a re-analysis of the deposited data

Results flagged for a closer look

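At day 4 in experiment 2, 5 of 9 Eomes-KD HE precursors (55.6%) had an endothelial extended label, and in the 39 WT HE precursors of that day and experiment none had it. At day 4.5 both Eomes-KD HE precursors had an endothelial or endocardial label (2 of 2, 100%), and the WT library held none of these cells. These labels belong to no comparison tested above. At day 4.5 the share of HE precursors was higher in Eomes-KD by 0.116 percentage points, against lower shares in Eomes-KD in all pairs of days 3.5 and 4, but both libraries were at or under the floor of 3 cells and this difference between days was not tested.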

How the results depend on the processing

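Values that answer a comparison were counted under settings that left out no single library. Of these, 63 kept their side of the threshold, 9 passed it newly and 1 lost it. Settings without days 4.5 and 5, or without day 4.5, are included although they drop libraries. Some of the 63 could not have passed the threshold, so the count does not measure robustness. In exact permutation tests the smallest possible p was 0.333 or more for measures per cell and 0.0625 for the YS path share within pairs. It was 0.0556 for the share without days 4.5 and 5 and the YS path share without day 4.5. Over days, limma on arcsine square root shares gave -0.0894 (adjusted p = 0.0823), the other settings kept the call, and leaving out a library gave -2.63 to -1.88. At day 3.5 the threshold was passed with TMM factors (-3.46), DESeq2 (-2.61), limma (-0.232 on the arcsine scale), the replicate block (-2.65), cells of high RNA count (-2.58) and the other YS path types left out of the total (-3.73), and leaving out a library gave -3.73 to -1.98. At day 4 it was passed with the replicate block (-2.17) and in cells of high RNA count (-3.31), and leaving out a library gave -3.72 to -1.21. The exact test on log2 shares, with counts under 3 cells set to 3, gave -1.80 (p = 0.0139). At days 4.5 and 5 every count was under 3, so the log2 shares there followed library size alone. The floored shares were 0.674% in WT and 0.174% in Eomes-KD at day 4.5, and 0.406% and 0.255% at day 5. That p therefore rests partly on library size. Permuting within pairs (replicate block) gave an exact p of 0.125 for the share (-2.98 points) and for the YS path share (4.13 points). The block changed no other call. Stage calls changed only on leaving out the WT library of experiment 1, where WT had no replicate.

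Differences per cell set against the other cells of the library reversed for RNA count (-148), genes (-29.5), mitochondrial percent (0.128), atlas score (0.06), extended score (0.09), UMAP axes (1.24 and -0.836) and distance to EOd (-0.931). The distance to HE reversed with means (0.236). TMM factors reversed mixed mesoderm (-0.0040) and, from day 3.5 to day 4, E7.25 (-0.0537) and E7.5 (-0.0466), and DESeq2 reversed nascent mesoderm (0.0131). Leaving out a library gave -1.72 to 0.618 for ribosomal percent (0.375 also reversed), -0.0572 to 0.0374 for the first UMAP axis, -360 to 9938 for RNA count, -0.618 to 0.135 for haematoendothelial (0.0839 also reversed), -0.0204 to 0.139 for mixed and -1.36 to 0.881 for nascent mesoderm atlas labels, -0.462 to 0.0470 for E7.0 and -0.0120 to 0.521 for E7.25, each range crossing 0. None of these reversed values passed the threshold, and the cause was not tested. Leaving out a library and the block could not be fitted for WT day 4 against day 3.5, where 3 libraries leave no residual degrees of freedom. A minimum of 10 HE precursors kept the same libraries, and no cluster test was run. The number of cells limits Eomes-KD values, which rest on 91 HE precursors at day 3.5.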

Other observations

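The nearest atlas cell of each HE precursor was often shared. The 1393 cells had 294 distinct nearest atlas cells, and a single atlas cell was nearest for 242 of them (17.4%). It was nearest for 25.3% of WT HE precursors of day 3.5 in experiment 1 and for 50.0% and 44.4% of Eomes-KD HE precursors in experiments 1 and 2, while in WT experiment 2 another atlas cell led with 11.8%. Of the 91 Eomes-KD HE precursors of day 3.5, 79 (86.8%) had a nearest atlas cell that was also nearest for a WT HE precursor of that day.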
